A study of Homo sapiens with 14 samples.

Results

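The 6 libraries of MDA-MB-231 cells treated with CX-5461 were compared among themselves: the 2 libraries labelled 10 min were set against the 4 libraries labelled 30 and 120 min (2 each), so that 6 of the 14 libraries of the series entered the main comparison and no control library did. The 6 libraries of cells given 5 µM RBI2, with the same labels and 2 libraries each, served for a comparison at the end. MDA-MB-231 is an established human triple-negative breast cancer line of mesenchymal character, and all 6 libraries came from cells given 5 µM CX-5461 after a night in culture. Their polyadenylated RNA was sequenced, and the rule that sets the 2 groups of libraries uses their labels and no measured value, although it was proposed with earlier results of these data known. The sources used here do not say whether the replicates were separate cultures, so every p-value below measures the spread between these libraries, which may be technical. The names under which the files were deposited carry the tokens 02, 10 and 30 for the labels 10, 30 and 120 min. The token 02 may stand for 2 h, in which case the group labelled 10 min would be the one treated for 120 min. Which of the label and the token gives the time of treatment was not settled here, so each statement holds for the label and says nothing of the order of the groups in time.

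CX-5461 is an inhibitor of RNA polymerase I, the enzyme that transcribes the ribosomal DNA repeats, and it is also known to bind G-quadruplex DNA and to act on topoisomerase II. Cells answer many stimuli with a short wave of immediate early genes, among them the transcription factors of the FOS, EGR and NR4A families, whose mRNAs appear and decay quickly because the genes are compact and the transcripts unstable. Growth factor, BMP, WNT and Hippo signals each have short-lived target genes of their own, such as DUSP6 and SPRY2, the ID genes, AXIN2, and CCN1, and the levels of such mRNAs follow the state of the pathway within a short time.

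The 6 libraries held between 14892514 and 24849354 estimated reads, and mitochondrial transcripts took between 8.17% and 8.87% of them. All 8 markers of the MDA-MB-231 line reached a normalised level of 1 CPM (counts scaled to library size), with a summed level of 7400 to 7610 CPM in every library. Of the markers of luminal breast epithelium, 3 of 8 reached 1 CPM with a sum of 73.2 to 104 CPM, ESR1 stayed at or below 0.168 CPM and PGR was at 0. None of 5 leukocyte markers reached 1 CPM (CD3E was at 0), 1 of 4 endothelial markers did, and 2 of 5 fibroblast markers did. The summed level of the fibroblast markers averaged 7.87 CPM with the label 10 min and 8.05 CPM in the others, and that of the endothelial markers 3.92 and 4.61 CPM. In a principal component analysis of the 500 most variable genes, the libraries labelled 10 min lay at 21.5 and 21.6 on the second component (24.3% of the variance) and the other 4 between -15.6 and -6.57. The first component (31.8%) set the labels 30 and 120 min furthest apart. Label 30 min lay at 7.23 and 31.6, label 10 min at 6.14 and -9.24, and label 120 min at -11.9 and -23.8. With all genes tested, the label 120 min again lay lowest on it (-17.1 and -41.6), and the labels 10 and 30 min overlapped.

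Across 14812 genes, 166 differed between the label 10 min and the mean of the other labels at an adjusted p under 0.05 and a change of at least 2-fold (quasi-likelihood F test of edgeR, p adjusted by the Benjamini-Hochberg method), which is 1.12% of the genes tested. Of these, 106 were higher with the label 10 min (0.716% of the genes tested) and 60 were lower (0.405%). The balance depended on the setting: DESeq2 called 79 higher and 64 lower genes, and without a fold limit 250 were higher and 328 lower. The median log2 fold change was 1.62 among the higher genes, -1.40 among the lower genes and -0.00 over all genes tested. With the 13 called genes that had no read in a group set at a floor of 3 counts over that group, both medians stayed at 1.62 and -1.40. The higher genes were mostly of low level, with a median of 4.0 CPM in the libraries labelled 10 min against 19.4 CPM over all genes tested, and 45 of them reached 5 CPM. The filter on low counts (minimum count 10) needs no more libraries than 1 group holds. A higher gene could thus enter the test through the label 10 min alone, as CEBPA and FRAT1 did. For such genes the filter used the same values that were then tested. Both libraries labelled 10 min lay above or below all 4 others for 161 of the 166 genes, where 24.3% of all genes tested did. Protein-coding genes made up 81 of the 106 higher and 43 of the 60 lower genes, against 83.9% of the genes tested, and long non-coding RNAs made up 18 and 14.

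Without a library labelled 10 min that label is left with 1 library, which is then assumed to vary like the other groups. Such a fit has less power, and what else lowered the number of calls was not tested. Their number was 62 without replicate 1 (30 higher and 32 lower) and 68 without replicate 2 of that label, and between 126 and 170 without any one of the other 4 libraries. All 166 genes kept their direction in each of these 6 fits, 150 and 158 of them were still past 2-fold without label 10 replicate 1 and 2, and 42 of them (24 higher and 18 lower) kept their call in all 6. A call lost without a library is given with its gene below, and where only an adjusted p is given for it, the fold change stayed at 2-fold or more after rounding. Among all called genes, 25 overlap the span of another gene with reads on the same strand, among them CDC42EP2 (ENSG00000285816), ENSG00000290999 (PDE4DIPP2), MXD1 (SNRNP27), NFKBIZ (NXPE3), OSGIN1 (MLYCD) and MIRLET7BHG (PRR34-AS1), and the reads of such pairs may not be fully told apart.

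**Figure D1:**
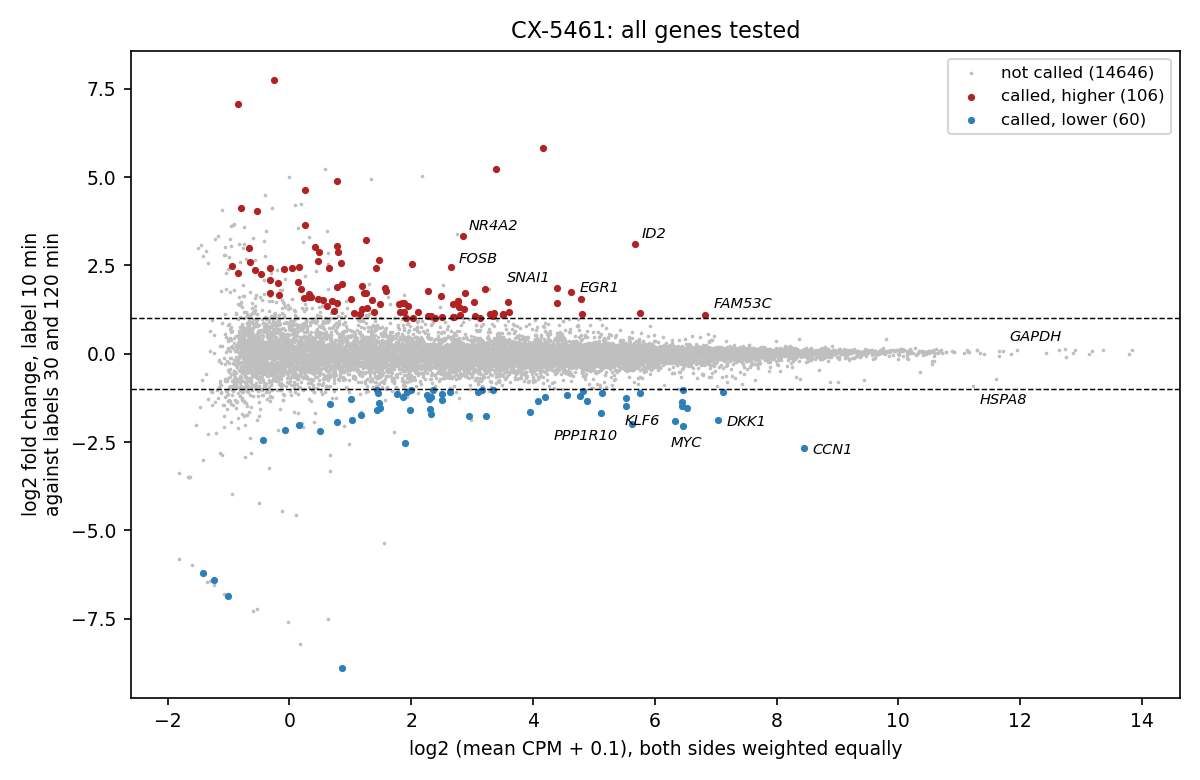
Each point is 1 of 14812 genes tested in the 6 CX-5461 libraries: the horizontal axis gives the log2 of its mean CPM plus 0.1, the vertical axis its log2 fold change with the label 10 min against the labels 30 and 120 min, and the dashed lines mark a 2-fold change. The 106 called higher genes (red) lie mostly at low levels, whereas CCN1, DKK1, MYC and KLF6 are lower genes (blue) of high level.

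The gene lists used from here on were drawn up with earlier results of these data known. A high share called in a list may thus be built in and is no independent support. The immediate early transcription factors differed in both directions. Of 13 genes tested in the list of EGR, NR4A and IER genes, 5 were called higher with the label 10 min, 1 was called lower and 7 were not called, which is 46.2% called against 1.12% of all genes tested, with a median log2 fold change of 0.80 against -0.00 over all genes. All 3 NR4A genes, which encode orphan nuclear receptors, were among the higher genes. NR4A2 (chromosome 2, 156324437 to 156342348 in GENCODE 44 on GRCh38) had 13.8 and 11.8 CPM with the label 10 min, 1.29 and 0.393 CPM with the label 30 min, and 1.5 and 2.47 CPM with the label 120 min. The groups did not overlap, and the difference was 10.0-fold (log2 fold change 3.32 ± 0.29, SE, adjusted p = 0.0014). NR4A1 stood at 7.99 and 8.64 CPM against 2.31 to 2.95 CPM in the other libraries (1.63 ± 0.15, adjusted p = 0.0018). NR4A3 was lower in level, at 3.09 and 2.69 CPM against 0.262 to 0.542 CPM (2.88 ± 0.32, adjusted p = 0.0038), and lost its call without label 10 replicate 1 (adjusted p = 0.082) or replicate 2 (adjusted p = 0.056).

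EGR1, a zinc finger transcription factor induced by growth factors (chromosome 5, 138465479 to 138469303), had 38.1 and 37.4 CPM with the label 10 min, 7.92 and 10.1 CPM with the label 30 min and 14.9 and 13.4 CPM with the label 120 min. It was 3.34-fold higher with the label 10 min (log2 fold change 1.74 ± 0.10, adjusted p = 0.00038). ARC, an activity-regulated gene best known from neurons, had 4.08 and 2.81 CPM against 0.88 to 1.34 CPM (1.73 ± 0.25, adjusted p = 0.011), and was not called without label 10 replicate 1 (adjusted p = 0.17) or replicate 2 (adjusted p = 0.053), nor with the transcript length offset. IER3, a small regulator of survival signalling, went the other way, with 48.9 and 47.6 CPM against 104 to 161 CPM (-1.36 ± 0.11, adjusted p = 0.0011). IER2 had 23.2 and 22.8 CPM against 37.5 to 56.5 CPM, a log2 fold change of -0.96 that passed the test (adjusted p = 0.0014) but not the 2-fold limit. On the higher side, IER5L (0.80), CSRNP1 (0.78) and CSRNP2 (0.53) likewise passed the test short of 2-fold. Without a fold limit, 8 members of the list were higher and 2 lower.

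Within AP-1, the dimeric factor built of FOS, JUN and ATF subunits, members differed in opposite directions, and not by subfamily. Among 12 genes tested, 3 were called higher and none lower (25%, where 0.716% of all genes tested were called higher), with a median log2 fold change of 0.16. FOSB (chromosome 19, 45467995 to 45475179) had 11 and 9.77 CPM with the label 10 min, 2.03 and 1.24 CPM with the label 30 min and 1.99 and 2.41 CPM with the label 120 min, a 5.49-fold difference (2.46 ± 0.18, adjusted p = 0.00078). FOS had 10.2 and 9.32 CPM against 2.49 to 5.11 CPM (1.48 ± 0.12, adjusted p = 0.0013), and was not called with the labels 30 and 120 min fitted as 1 group. ATF3, a stress-responsive member, had 18 and 15.5 CPM against 6.15 to 9.32 CPM (1.19 ± 0.13, adjusted p = 0.0038), and was not called without label 10 replicate 1 (adjusted p = 0.072). JUN stood at 45.5 and 43.9 CPM against 76.4 to 102 CPM (-0.98 ± 0.06, adjusted p = 0.00049) and FOSL1 at 385 and 365 CPM against 600 to 759 CPM (-0.81 ± 0.07, adjusted p = 0.0014). Both passed the test at less than 2-fold. FOSL2 (-0.40, adjusted p = 0.073) and JUND (0.12, adjusted p = 0.61) did not pass. JUNB, at 36.7 and 32.4 CPM against 21.6 to 26.9 CPM, did not pass either (0.49 ± 0.11, adjusted p = 0.056).

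The promoter sequences of EGR1 and FOSB are shown because EGR1 had the highest level among the called early genes that were higher, and FOSB the largest fold change within AP-1. Each sequence gives the 250 bases before the start of the gene in RefSeq (GRCh38.p14, plus strand), with capitals for the motifs found. In EGR1 these were 2 CArG boxes, the binding motif of serum response factor, at 105 to 96 and at 83 to 74 bases before the start, and an overlapping GGCGCC and G-quadruplex motif (4 runs of 3 G, here with spacers of up to 7 bases) at 215 to 192 bases before it. In FOSB a TATAAA box was found at 30 to 25 bases before the start.
EGR1, chr5:138465229-138465478: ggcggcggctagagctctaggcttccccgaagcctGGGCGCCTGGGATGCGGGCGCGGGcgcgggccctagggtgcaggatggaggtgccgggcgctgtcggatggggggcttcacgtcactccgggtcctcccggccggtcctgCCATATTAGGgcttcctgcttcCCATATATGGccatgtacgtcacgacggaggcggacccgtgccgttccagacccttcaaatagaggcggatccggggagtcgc
FOSB, chr19:45467746-45467995: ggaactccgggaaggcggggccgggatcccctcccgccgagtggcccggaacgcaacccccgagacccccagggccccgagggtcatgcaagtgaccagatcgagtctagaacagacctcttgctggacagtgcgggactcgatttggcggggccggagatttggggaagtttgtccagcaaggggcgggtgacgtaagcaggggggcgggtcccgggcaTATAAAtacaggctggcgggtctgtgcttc

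The 4 ID genes, which encode helix-loop-helix proteins that block the DNA binding of their partners and are classical targets of BMP signalling, separated into pairs of opposite direction. ID2 (chromosome 2, 8678845 to 8684461) had 94.4 and 86.4 CPM with the label 10 min, 6.84 and 6.61 CPM with the label 30 min and 16.7 and 16.7 CPM with the label 120 min. It was 8.53-fold higher with the label 10 min (log2 fold change 3.09 ± 0.07, adjusted p = 2.9e-06), and its labels 30 and 120 min also differed from each other (120 against 30 min 1.31, adjusted p = 0.014). ID4 had 4.24 and 3.98 CPM against 0.131 to 0.689 CPM (3.22 ± 0.32, adjusted p = 0.0025), and was not called without label 10 replicate 1 (adjusted p = 0.053). ID1 (chromosome 20, 31605283 to 31606515) had 48.1 and 43.3 CPM with the label 10 min, 162 and 194 CPM with the label 30 min and 102 and 93.1 CPM with the label 120 min, a 2.88-fold lower level (-1.53 ± 0.10, adjusted p = 0.00058). ID3 had 36 and 31.9 CPM against 56.9 to 95.8 CPM (-1.10 ± 0.11, adjusted p = 0.0023), and was not called without label 10 replicate 2 (adjusted p = 0.053). ID1 and ID3 were not called with the labels 30 and 120 min fitted as 1 group. For all 4 genes the mean of the label 120 min lay between those of the other labels.

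Of 25 genes tested in the list of the BMP and TGF-beta pathway, 3 were called higher and 2 lower, which is 20% against 1.12% of all genes tested, with a median log2 fold change of -0.04. The third higher gene was BAMBI, a pseudoreceptor that dampens TGF-beta signalling, at 19.7 and 15.5 CPM against 5.89 to 7.5 CPM (1.47 ± 0.14, adjusted p = 0.0019). SKIL, a repressor of SMAD proteins, had 28.9 and 28.8 CPM against 13.9 to 24.1 CPM (0.61 ± 0.12, adjusted p = 0.034) and did not reach 2-fold. The SMAD genes, which encode the signal transducers of the pathway, were not called. The inhibitory SMAD6 had 2.59 and 2.81 CPM against 2.5 to 3.01 CPM (-0.04 ± 0.18, adjusted p = 0.94), and the inhibitory SMAD7 had 15.4 and 12.5 CPM against 10.6 to 11.9 CPM (0.31 ± 0.11, adjusted p = 0.22).

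The promoters of ID1 and ID2 are shown because these called genes of 1 family differed in opposite directions and kept their calls without any one library. Capitals mark a G-quadruplex motif on the minus strand at 145 to 124 bases before the start of ID2, a G-quadruplex motif on the minus strand at 222 to 201 bases before the start of ID1, and an ID1 TATA box read on both strands, at 31 to 26 bases on the plus and 33 to 28 bases on the minus strand.
Both windows end at the RefSeq start, which for ID1 and for ID2 lies inside the GENCODE gene.
ID2, chr2:8681806-8682055: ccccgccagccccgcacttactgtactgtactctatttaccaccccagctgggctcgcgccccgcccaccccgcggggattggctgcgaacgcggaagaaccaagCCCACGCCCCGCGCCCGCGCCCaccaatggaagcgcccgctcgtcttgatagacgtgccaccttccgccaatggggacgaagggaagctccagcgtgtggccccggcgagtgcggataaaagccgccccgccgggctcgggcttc
ID1, chr20:31605039-31605288: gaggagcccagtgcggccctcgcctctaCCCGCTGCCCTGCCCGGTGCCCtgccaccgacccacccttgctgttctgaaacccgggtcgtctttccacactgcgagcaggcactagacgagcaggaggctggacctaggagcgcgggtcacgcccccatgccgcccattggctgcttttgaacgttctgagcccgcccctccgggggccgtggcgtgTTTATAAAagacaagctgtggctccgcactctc

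CCN1, a secreted matricellular protein and a target of the YAP and TEAD factors of the Hippo pathway, showed the largest fall among the called genes of at least 5 CPM that did not overlap. CCN1 (chromosome 1, 85580761 to 85584589) had 96.2 and 91.5 CPM with the label 10 min, 709 and 699 CPM with the label 30 min and 517 and 502 CPM with the label 120 min. The level was 6.38-fold lower with the label 10 min (log2 fold change -2.67 ± 0.06, adjusted p = 2.9e-06). It was the only called gene among 22 YAP and TEAD targets tested (4.55%, where 0.405% of all genes tested were called lower), 16 of which had a log2 fold change below 0 (15 with the transcript length offset), with a median of -0.15. Its relative CCN2 stood at 347 and 333 CPM against 570 to 634 CPM (-0.81 ± 0.06, adjusted p = 0.00065) and the growth arrest gene GADD45A at 26.5 and 26.3 CPM against 47.1 to 61.3 CPM (-0.99 ± 0.08, adjusted p = 0.00099), both short of 2-fold. Without label 30 replicate 1, GADD45A was called as well. AXL, a receptor tyrosine kinase of the list, had 1290 and 1370 CPM against 1230 to 1540 CPM (adjusted p = 0.78).

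MYC, the growth-promoting transcription factor, was 4.1-fold lower with the label 10 min. MYC (chromosome 8, 127735434 to 127742951) had 35.7 and 32.6 CPM with the label 10 min, 159 and 164 CPM with the label 30 min and 120 and 123 CPM with the label 120 min (log2 fold change -2.04 ± 0.07, adjusted p = 3.4e-05). Of 11 genes tested in the MYC and MAX network, 2 others were called, both higher: MXD1, which competes with MYC for MAX, at 14.5 and 16.3 CPM against 6.12 to 8.14 CPM (1.10 ± 0.13, adjusted p = 0.0061), and MYCL at 1.6 and 1.63 CPM against 0.225 to 0.916 CPM (1.83 ± 0.37, adjusted p = 0.041). MXD1 was not called without label 10 replicate 1 (adjusted p = 0.068) or replicate 2 (adjusted p = 0.099), nor without label 120 replicate 1, where its log2 fold change was 0.99. MYCL was called in just 1 of the 6 fits that each left out a library (without label 30 replicate 2), with an adjusted p of 0.078 to 0.31 in the others, and was not called with DESeq2, the replicate block or the labels 30 and 120 min fitted as 1 group. The 3 calls are 27.3% of the list, against 1.12% of all genes tested, and the list had 1 call without label 10 replicate 1, label 10 replicate 2 or label 120 replicate 1.

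Feedback inhibitors of the MAPK pathway, which growth factor signals induce to limit themselves, were mostly below 0: 13 of the 16 tested had a negative log2 fold change (12 with the transcript length offset), with a median of -0.20. Of the 16, 2 were called lower and 1 higher, which is 18.8% against 1.12% of all genes tested. DUSP6, the phosphatase that acts on ERK, had 48.7 and 43.8 CPM against 118 to 141 CPM (-1.47 ± 0.07, adjusted p = 0.00015). SPRY2, a Sprouty protein that limits receptor tyrosine kinase signalling, had 16.7 and 16.9 CPM against 39.5 to 45.4 CPM (-1.33 ± 0.08, adjusted p = 0.00043). SPRY1, DUSP2, DUSP4, DUSP10 and SPRED3 passed the test on the lower side at less than 2-fold, with log2 fold changes of -0.84, -0.94, -0.43, -0.71 and -0.41. DUSP1 stood at 23.9 and 25.6 CPM against 24 to 31.4 CPM and did not pass (adjusted p = 0.41). The single member called higher, DUSP8, had 2.87 and 2.97 CPM against 0.842 to 1.76 CPM (1.11 ± 0.23, adjusted p = 0.047) and lost its call without any one of the 6 libraries (adjusted p = 0.051 to 0.32, with a log2 fold change of 0.99 without label 120 replicate 2). DUSP8 was not called either with DESeq2, the transcript length offset, the replicate block, all 14 libraries or the labels 30 and 120 min fitted as 1 group. None of 10 EGFR family members and ligands was called by edgeR or by DESeq2, and 2 had an unadjusted p under 0.05.

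In the KLF family of zinc finger factors, KLF6 and KLF9 differed in opposite directions, and the other 11 of 13 genes tested were not called (15.4% called, against 1.12% of all genes tested, and 1 call without either library labelled 10 min). KLF6 (chromosome 10, 3775996 to 3785281) had 36.7 and 31.3 CPM with the label 10 min, 137 and 137 CPM with the label 30 min and 114 and 119 CPM with the label 120 min, a 3.71-fold lower level (-1.89 ± 0.08, adjusted p = 9.5e-05). KLF9, a target of glucocorticoid and thyroid hormone receptors, had 3.31 and 3.59 CPM against 0.589 to 1.18 CPM (1.92 ± 0.28, adjusted p = 0.011), and was not called without label 10 replicate 1 (adjusted p = 0.12) or replicate 2 (adjusted p = 0.14). KLF10, which TGF-beta induces, had 117 and 111 CPM against 65.3 to 98.7 CPM (0.50 ± 0.08, adjusted p = 0.015), short of 2-fold.

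The next called genes encode WNT signalling proteins, and all but DKK1 were chosen after their values were seen, with no list of the pathway drawn up. DKK1, a secreted inhibitor of WNT receptors (chromosome 10, 52314281 to 52318042), had 56.7 and 56 CPM with the label 10 min, 223 and 238 CPM with the label 30 min and 190 and 178 CPM with the label 120 min, a 3.66-fold lower level (-1.87 ± 0.07, adjusted p = 3.4e-05). FZD8, a Frizzled receptor, had 4.52 and 4.77 CPM against 0.655 to 0.812 CPM (2.66 ± 0.21, adjusted p = 0.001). AXIN2, a scaffold of the beta-catenin destruction complex and a target of the pathway, had 4.46 and 4.27 CPM against 0.589 to 1.02 CPM (2.43 ± 0.26, adjusted p = 0.0038). FRAT1, a binding partner of GSK3, had 1.71 and 1.74 CPM against 0.262 to 0.393 CPM (2.46 ± 0.30, adjusted p = 0.0061). Without label 10 replicate 1, AXIN2 and FRAT1 had an adjusted p of 0.071 and 0.11, and without replicate 2 of 0.053 and 0.11.

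The remaining genes with the largest rises encode regulators of several kinds. SNAI1, a zinc finger repressor that drives epithelial-mesenchymal transition, had 33.6 and 31.9 CPM against 7.72 to 10.7 CPM, a 3.63-fold difference (1.86 ± 0.11, adjusted p = 0.00038). RASD1, a dexamethasone-inducible RAS-like GTPase, had 14.6 and 13.9 CPM with the label 10 min, 2.71 and 3.21 CPM with the label 30 min and 4.9 and 5.72 CPM with the label 120 min (1.85 ± 0.12, adjusted p = 0.00049). HOXD1, a homeobox factor, had 6.95 and 6.4 CPM against 0.609 to 1.54 CPM (2.54 ± 0.23, adjusted p = 0.0018). ZNF503, a zinc finger repressor, had 7.17 and 7.58 CPM against 1.91 to 2.29 CPM (1.77 ± 0.14, adjusted p = 0.0012). TNFSF9, the ligand of 4-1BB, a costimulatory receptor on T cells, had 11.9 and 10.5 CPM against 2.92 to 3.85 CPM (1.73 ± 0.15, adjusted p = 0.0014). These 5 genes were called in all 6 fits that left out a library.

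Among the largest falls, PPP1R10, a nuclear targeting subunit of protein phosphatase 1 (chromosome 6, 30600413 to 30618612), had 20.3 and 19.8 CPM with the label 10 min, 81.5 and 74 CPM with the label 30 min and 75.9 and 84 CPM with the label 120 min. It was 3.93-fold lower (-1.97 ± 0.09, adjusted p = 9.5e-05), and its labels 30 and 120 min differed by 0.04 on the log2 scale. CDC42EP2, an effector of the GTPase CDC42, had 15.7 and 17 CPM against 41.1 to 61.8 CPM (-1.69 ± 0.12, adjusted p = 0.0007). IGHV3-15, annotated as an immunoglobulin variable segment, had 4.69 and 3.7 CPM against 11.5 to 17.4 CPM (-1.76 ± 0.13, adjusted p = 0.00073). ENSG00000290999, a long non-coding RNA, had 2.26 and 2.3 CPM against 5.75 to 8.94 CPM (-1.71 ± 0.19, adjusted p = 0.0038), and was not called without label 10 replicate 1 (adjusted p = 0.072) or replicate 2 (adjusted p = 0.062). INTS2, a subunit of the Integrator complex, had 0.606 and 1.46 CPM against 2.51 to 9.41 CPM (-2.52 ± 0.51, adjusted p = 0.039). Its libraries labelled 120 min stood at 2.51 and 6.51 CPM, and its call was lost without label 10 replicate 1 (adjusted p = 0.33), label 10 replicate 2 (adjusted p = 0.16) or label 30 replicate 1 (adjusted p = 0.071), and also with the transcript length offset, the replicate block, all 14 libraries or the labels 30 and 120 min fitted as 1 group.

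**Figure D2:**
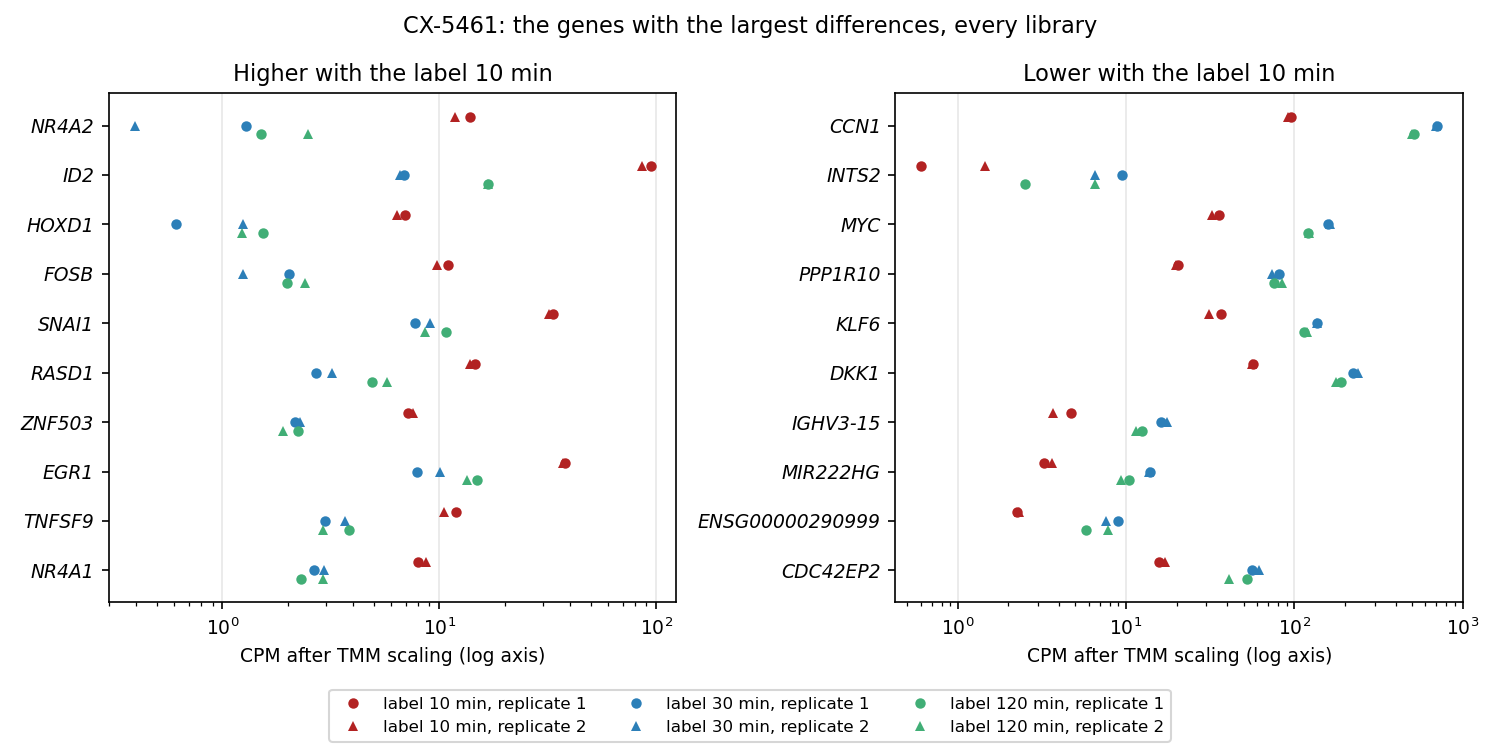
For the 10 genes with the largest rise (left) and the 10 with the largest fall (right) among called genes of at least 5 CPM whose groups did not overlap, each symbol is the CPM of 1 library on a log axis, coloured by label and shaped by replicate. The choice of genes sets the libraries labelled 10 min (red) apart from the other 4, and the figure shows the size of the gap, for example 94.4 and 86.4 CPM against 6.61 to 16.7 CPM for ID2, and the labels 30 (blue) and 120 min (green) lie closer together.

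Of 20 NF-kB targets tested, 2 were called lower, none higher, and 14 had a log2 fold change below 0 (13 with size factors or the length offset), with a median of -0.26. The share called was 10%, where 0.405% of all genes tested were called lower, and the list had 1 call without label 10 replicate 1, label 10 replicate 2, label 30 replicate 1 or label 120 replicate 2. NFKBIA, the inhibitor that NF-kB induces against itself, had 16.8 and 16.4 CPM against 32.8 to 43.9 CPM (-1.19 ± 0.09, adjusted p = 0.00067). NFKBIZ had 5.46 and 6.06 CPM against 9.95 to 14.5 CPM (-1.03 ± 0.13, adjusted p = 0.0077), and was not called without label 10 replicate 1 (log2 fold change -0.96, adjusted p = 0.13), label 10 replicate 2 (adjusted p = 0.086), label 30 replicate 1 (log2 fold change -0.97) or label 120 replicate 2 (log2 fold change -0.95), nor with the transcript length offset. BIRC3, an inhibitor of apoptosis, had 26 and 24.5 CPM against 43.9 to 52.3 CPM (-0.94 ± 0.08, adjusted p = 0.0013), short of 2-fold. TNFAIP2 was the 1 member that passed the test on the higher side, also short of 2-fold (0.36, adjusted p = 0.019). Outside the list and chosen after its values were seen, CD274, which encodes the immune checkpoint ligand PD-L1, had 6.61 and 6.51 CPM against 11.2 to 14.8 CPM (-1.04 ± 0.13, adjusted p = 0.0071), and was not called without label 10 replicate 1 (adjusted p = 0.11), label 10 replicate 2 (adjusted p = 0.11) or label 30 replicate 1 (log2 fold change -0.93), nor with the transcript length offset.

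Further called genes, chosen after their values were seen, are given for their role or level. At high level, FAM53C had 155 and 154 CPM against 63.6 to 78.5 CPM (1.11 ± 0.06, adjusted p = 0.00023). PHLDA1 had 91.4 and 87.2 CPM against 177 to 199 CPM (-1.07 ± 0.06, adjusted p = 0.0003), and OSGIN1, an oxidative stress gene, 22.9 and 25.1 CPM against 58.3 to 81.5 CPM (-1.49 ± 0.10, adjusted p = 0.00059). The hyaluronan synthases differed in opposite directions. HAS2 had 2.2 and 2.69 CPM against 6.02 to 8.08 CPM (-1.56 ± 0.17, adjusted p = 0.0038), and HAS3 had 4.85 and 4.15 CPM against 1.05 to 1.8 CPM (1.78 ± 0.23, adjusted p = 0.0075). HAS2 was not called without label 10 replicate 1 (adjusted p = 0.072), nor HAS3 without replicate 1 (adjusted p = 0.12) or replicate 2 (adjusted p = 0.069).

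Transcription factors best known from embryonic patterning or tissue identity are given next as examples of higher genes of low level, chosen after their values were seen. No list of them was drawn up and no count was made. CEBPA entered the test only through the libraries labelled 10 min, as it was below the filter on low counts in the others. CEBPA, a factor of myeloid and fat cell differentiation, had 3.25 and 2.53 CPM against 0.135 to 0.486 CPM (3.05 ± 0.38, adjusted p = 0.0064). HEY1, a Notch target, had 2.37 and 2.19 CPM against 0.196 to 0.617 CPM (2.89 ± 0.41, adjusted p = 0.01) and was the single called gene among 14 HES, HEY and SOX genes tested (7.14%, against 1.12% of all genes tested). MAFA, a beta cell factor, had 2.92 and 2.92 CPM against 0.338 to 0.648 CPM (2.58 ± 0.26, adjusted p = 0.0026). DLX3, EN2, MNX1 and NR2F1 were higher as well, with log2 fold changes of 1.86, 1.27, 1.98 and 1.44. Each of these 7 genes lost its call without label 10 replicate 1 (adjusted p = 0.063 to 0.14), and CEBPA, HEY1, MAFA and MNX1 also did without replicate 2 (adjusted p = 0.053 to 0.15).

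Host genes of microRNAs were lower with the label 10 min where they differed. Of 12 tested, 4 were called lower and none higher (2 lower with DESeq2), where 0.405% of all genes tested were called lower, with a median log2 fold change of -0.53, and 10 of the 12 were below 0. MIR222HG, the host of miR-221 and miR-222 (chromosome X, 45745210 to 45770274), had 3.25 and 3.65 CPM with the label 10 min, 13.9 and 13.6 CPM with the label 30 min and 10.4 and 9.37 CPM with the label 120 min, a 3.38-fold lower level (-1.76 ± 0.12, adjusted p = 0.00059). MIR17HG, the host of the miR-17 to miR-92a cluster, had 1.05 and 0.898 CPM against 2.53 to 4.47 CPM (-1.74 ± 0.24, adjusted p = 0.0095), and was not called without label 10 replicate 1 (adjusted p = 0.10) or replicate 2 (adjusted p = 0.12). MIR3142HG, the host of miR-146a, had 0.165 and 0.225 CPM against 0.786 to 1.34 CPM (-2.44 ± 0.45, adjusted p = 0.029), and MIRLET7BHG 1.65 and 1.74 CPM against 2.64 to 4.45 CPM (-1.03 ± 0.20, adjusted p = 0.035). MIR3142HG was called in 1 of the 6 fits that left out a library (without label 120 replicate 2) and MIRLET7BHG in none. Both also lost their call with DESeq2, the transcript length offset and the replicate block, and MIRLET7BHG with all 14 libraries or the labels 30 and 120 min fitted as 1 group. The list had 1 call without either library labelled 10 min, 2 without either library labelled 30 min or label 120 replicate 1, and 3 without label 120 replicate 2. A further host outside the list and chosen after its values were seen, MIRLET7A1HG, had 2.87 and 2.86 CPM against 5.14 to 8.59 CPM (-1.17 ± 0.17, adjusted p = 0.012), and was not called without either library labelled 10 min (adjusted p = 0.14 each), nor with the transcript length offset or the labels 30 and 120 min fitted as 1 group.

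The mature microRNAs themselves were not measured in these libraries. Their sequences from RefSeq (GRCh38.p14) are shown for the hosts that differed, with the seed (bases 2 to 8) in capitals, since the seed sets which mRNAs a microRNA can bind. The pair from MIR222HG shares the seed GCUACAU, miR-17 and miR-20a share AAAGUGC, miR-19a and miR-19b share GUGCAAA, and the let-7 members share GAGGUAG.
hsa-miR-222-3p: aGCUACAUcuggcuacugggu
hsa-miR-221-3p: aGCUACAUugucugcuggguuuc
hsa-miR-17-5p: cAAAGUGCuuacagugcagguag
hsa-miR-20a-5p: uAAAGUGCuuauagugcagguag
hsa-miR-19a-3p: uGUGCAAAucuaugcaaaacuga
hsa-miR-19b-3p: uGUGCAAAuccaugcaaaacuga
hsa-miR-92a-3p: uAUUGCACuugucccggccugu
hsa-let-7a-5p: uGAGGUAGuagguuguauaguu
hsa-let-7b-5p: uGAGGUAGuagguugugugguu
hsa-miR-146a-5p: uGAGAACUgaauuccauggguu

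Host genes of small nucleolar RNAs, the guides of ribosomal RNA modification, likewise lay mostly below 0. Of 28 tested, 3 were called lower, none higher, and 22 had a log2 fold change below 0 (24 with the length offset), with a median of -0.30. The share called was 10.7%, where 0.405% of all genes tested were called lower. SNHG4 had 27.2 and 27.1 CPM against 59.1 to 72 CPM (-1.25 ± 0.08, adjusted p = 0.00047), and SNHG12 had 10.4 and 8.59 CPM against 20.4 to 27.6 CPM (-1.33 ± 0.11, adjusted p = 0.0011). SNHG3 had 23.6 and 19.7 CPM with the label 10 min, 58.1 and 57.7 CPM with the label 30 min and 37.9 and 39 CPM with the label 120 min (-1.12 ± 0.09, adjusted p = 0.0012), and it fell just short of the 2-fold limit without label 10 replicate 2 (adjusted p = 0.03) and was not called with the labels 30 and 120 min fitted as 1 group. Without a fold limit, 11 of the 28 passed the test and all 11 were lower, where 578 of all 14812 genes tested passed, 328 of them lower. Among the 11 were GAS5 at 111 and 102 CPM against 141 to 192 CPM (-0.65 ± 0.07, adjusted p = 0.0038) and TAF1D, which also encodes a subunit of the Pol I selectivity factor, at 126 and 120 CPM against 201 to 242 CPM (-0.86 ± 0.06, adjusted p = 0.00065). Each of the 3 called hosts overlaps another gene on the same strand (MATR3, SNORD99, and RCC1 with SNORA73B), so that their reads cannot be fully told apart.

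Genes of ribosome production, the process CX-5461 acts on, were not called. None of 22 Pol I subunits and factors, of 59 ribosome biogenesis factors or of 84 cytosolic ribosomal protein genes was called by edgeR or DESeq2, with an unadjusted p under 0.05 for 3, 9 and 1 of them. Of the 22 Pol I genes, 2 passed the test without reaching 2-fold: UBTF, the Pol I activator, with 142 and 135 CPM against 105 to 108 CPM (0.38 ± 0.06, adjusted p = 0.014), and TAF1D, given above. POLR1A, the largest subunit of Pol I, had 174 and 202 CPM against 190 to 251 CPM (adjusted p = 0.37), and the nucleolar proteins NPM1 and NCL differed by 0.12 and 0.06 on the log2 scale (adjusted p = 0.29 and 0.63). The ribosomal protein genes lay close together, between -0.26 and 0.18 with a median of 0.07, and 80 of the 84 were above 0 (77 with the length offset). No gene was called either among 21 topoisomerase, TDP and helicase genes, 23 homologous recombination genes, 13 mitochondrial mRNAs, 24 genes of elongation control, 20 CLK and SR genes, 20 genes of the integrated stress response, 19 heat shock genes or 16 BCL2 family and survival genes. The BCL2 list did not stay without a call when label 30 replicate 2 was left out. Over the 12 lists without a call, which hold 330 genes, DESeq2 called 0 genes, 60 had an unadjusted p under 0.05, and 16 passed the adjusted test without a fold limit. Over all 14812 genes tested, 2511 had an unadjusted p under 0.05 and 578 passed the adjusted test without a fold limit.

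HSPA8, the constitutive HSC70 chaperone, was 1 of those 16. It had 1660 and 1690 CPM with the label 10 min, 3170 and 3200 CPM with the label 30 min and 3130 and 3030 CPM with the label 120 min, a log2 fold change of -0.90 ± 0.05 (adjusted p = 0.00027). The label 10 min lay below all 4 other libraries, short of 2-fold. The chaperones DNAJB1, HSPA1A and HSPA1B passed the test in the same direction at -0.59, -0.68 and -0.44, the last 2 being near-identical copies whose reads cannot be assigned with certainty. HSP90AA1 had 5510 and 5630 CPM against 5070 to 5920 CPM (adjusted p = 0.89). The control genes ACTB and GAPDH differed by 0.03 and 0.07 (adjusted p = 0.82 and 0.70).

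Of the genes of growth control, 1 in each list was called, which is 4.17% of the p53 targets, 5.88% of the mRNA decay genes and 5% of the cyclins and CDK inhibitors, against 1.12% of all genes tested. BTG2, an antiproliferative gene held in both the p53 and the mRNA decay list, had 7.28 and 6.51 CPM against 2.92 to 3.8 CPM (1.02 ± 0.14, adjusted p = 0.01) and was the only call among 24 p53 targets and among 17 mRNA decay genes. It was not called without label 10 replicate 1 (log2 fold change 0.93, adjusted p = 0.14), label 10 replicate 2 (adjusted p = 0.086), label 30 replicate 1 (log2 fold change 0.99) or label 120 replicate 2 (log2 fold change 0.97), nor with all 14 libraries. CDKN1C, the CDK inhibitor p57, had 5.57 and 4.43 CPM against 1.76 to 2.76 CPM (1.17 ± 0.23, adjusted p = 0.036), the only call among 20 cyclins and CDK inhibitors. It was not called without label 10 replicate 1 (adjusted p = 0.35), label 10 replicate 2 (adjusted p = 0.16), label 30 replicate 1 (adjusted p = 0.071) or label 120 replicate 2 (adjusted p = 0.064), nor with the transcript length offset, the replicate block or the labels 30 and 120 min fitted as 1 group. Short of 2-fold, CDKN1A, the CDK inhibitor p21, had 47.7 and 43.3 CPM against 26.4 to 29.3 CPM (0.73 ± 0.08, adjusted p = 0.003), CCNG2, cyclin G2, 20 and 18.8 CPM against 9.88 to 11.6 CPM (0.84 ± 0.08, adjusted p = 0.0025), and PLK2, a p53-induced kinase, 89.4 and 91 CPM against 161 to 177 CPM (-0.92 ± 0.06, adjusted p = 0.00059). CCND1 had 510 and 479 CPM against 492 to 601 CPM (adjusted p = 0.34).

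Zinc finger genes with numbered names formed the longest list. Of 425 tested, 8 were called lower and 1, ZNF503, higher, which is 2.12% of them against 1.12% of all genes tested, with a median log2 fold change of -0.19, and 305 were below 0 (297 with size factors). The called lower members were of low level. ZNF19 had 0.606 and 0.337 CPM against 1.9 to 2.3 CPM (-2.18 ± 0.32, adjusted p = 0.011), ZNF624 had 0.717 and 0.617 CPM against 2.03 to 3.31 CPM (-1.92 ± 0.27, adjusted p = 0.01), and ZNF658 had 0.22 and 0.393 CPM against 1.01 to 1.7 CPM (-2.15 ± 0.37, adjusted p = 0.022). Each lost its call without label 10 replicate 1 (adjusted p = 0.072 to 0.24) or replicate 2 (adjusted p = 0.13 or 0.14), and ZNF658 also without any one of the other 4 libraries (adjusted p = 0.05 to 0.065 after rounding). ZNF19 was not called with the transcript length offset, nor ZNF658 with the replicate block or the labels 30 and 120 min fitted as 1 group. The list as a whole had 9 calls, and far fewer without either library labelled 10 min. It also had fewer without label 30 replicate 1 or either library labelled 120 min, and more without label 30 replicate 2. Of 23 replication-dependent histone genes tested, H4C3 alone was called (4.35%, against 1.12% of all genes tested). It had low values (1.71 and 1.18 CPM against 3.14 to 4.84 CPM, -1.40 ± 0.22, adjusted p = 0.015), and was not called without label 10 replicate 1 (adjusted p = 0.072) or replicate 2 (adjusted p = 0.15), nor with the replicate block or the labels 30 and 120 min fitted as 1 group. Without label 30 replicate 1, 3 histone genes were called.

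**Figure D3:**
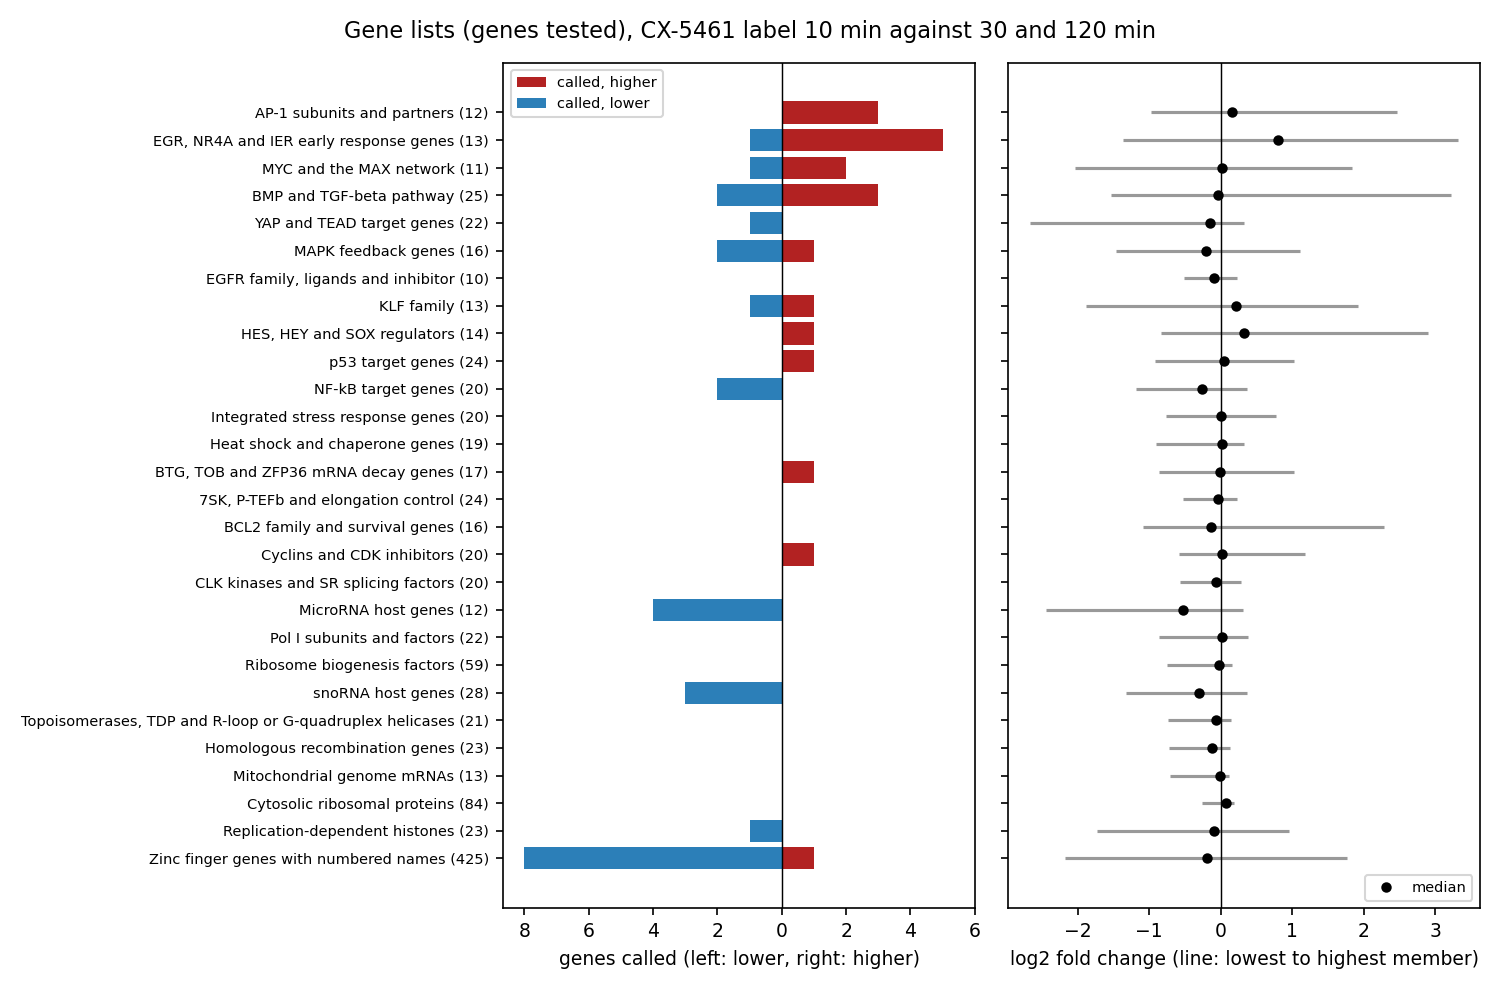
For 28 gene lists (the number of genes tested in brackets), the left panel counts the genes called lower (blue, to the left) and higher (red, to the right) with the label 10 min, and the right panel gives the median (point) and the range (line) of the members' log2 fold changes. The early response list has 5 higher genes and 1 lower gene, the microRNA and snoRNA hosts 4 and 3 lower genes and no higher one, and the lists of ribosome production none.

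The label 10 min was also set against each of the other labels alone, which share its libraries. It differed in 140 genes from the label 30 min (79 higher and 61 lower, 0.945%, 0.533% and 0.412% of the genes tested) and in 143 from the label 120 min (75 higher and 68 lower, 0.965%, 0.506% and 0.459%). The balance turned without a fold limit, with 158 higher and 217 lower against the label 30 min and 176 and 287 against the label 120 min, where DESeq2 also called 59 higher and 71 lower. Of the 166 genes called against both, 79 were called against each label alone, 34 against the label 30 min alone, 32 against the label 120 min alone and 21 against neither, and 163 had 1 sign in both comparisons. FAM53C, for example, stood 1.23 above the label 30 min and 0.98 above the label 120 min on the log2 scale. SNHG3 had log2 fold changes of -1.42 and -0.82 against the same labels. Without label 10 replicate 1 or 2 the counts fell to 57 and 49 against the label 30 min and to 29 and 37 against the label 120 min, and they were 93 without label 30 replicate 2 and 62 without label 120 replicate 2 in the comparison with that label.

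The labels 30 and 120 min differed from each other in 7 genes (5 higher and 2 lower with the label 120 min, 0.0473%, 0.0338% and 0.0135%), and DESeq2 called 4. For the genes called with the label 10 min, the median size of the difference between the labels 30 and 120 min was 0.34 on the log2 scale, against 0.21 over all genes tested. Over all genes, the median size was 0.14 for the label 10 min against 30 min and 0.19 against 120 min. The labels 30 and 120 min also had the most genes with an unadjusted p under 0.05 in edgeR. Their number was 3848, against 2142 and 3639 for the label 10 min against 30 and 120 min. Without label 30 replicate 1 the 7 genes became 173, without label 30 replicate 2 they became 2, and without label 120 replicate 1 they became 15, so this count rests on those libraries. The group labelled 120 min lay above the label 30 min for 66 of the 106 higher genes and below it for 45 of the 60 lower genes, where 48.4% and 51.6% of all genes tested did. Besides ID2, the genes called were mainly ones in which 1 group had no or unequal reads. CACNB1, a calcium channel subunit, had 8.6 and 8.7 CPM with the label 10 min and 6.63 and 10.2 CPM with the label 30 min, but 1.13 and 1.74 CPM with the label 120 min, so that its call with the label 10 min (1.33 ± 0.21, adjusted p = 0.016) came from the label 120 min alone, and was lost without either library labelled 10 min (adjusted p = 0.15 each), with the transcript length offset, with all 14 libraries or with the labels 30 and 120 min fitted as 1 group. The pseudogene EIF4EP2 and ENSG00000262526, a transcript that shares its strand and span with CTDNEP1 and GABARAP, had no read with the label 30 min. EIF4EP2 had 9.81 and 15.4 CPM with the label 10 min and 18.4 and 14.5 CPM with the label 120 min, at least 128-fold and at least 167-fold above a floor of 3 counts over the label 30 group. ENSG00000262526 had 19.1 and 27.7 CPM and 25.4 and 24.2 CPM, at least 238-fold and at least 252-fold above that floor. In both, the groups labelled 10 and 120 min were alike in range, so their calls with the label 10 min came from the label 30 min alone. Both were lost with the labels 30 and 120 min fitted as 1 group, and that of EIF4EP2 also with 12 or 14 libraries in the fit. BZW1P2, also a pseudogene, was at 0 in both other groups and had 13.2 and 9.54 CPM with the label 120 min. RPL36A, a ribosomal protein gene, had 147 and 144 CPM with the label 10 min, 171 and 205 CPM with the label 30 min and 98.9 and 85.3 CPM with the label 120 min.

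The called genes were short. Over protein-coding genes, the median distance from gene start to end was 10.5 kb for the 81 higher genes and 9.15 kb for the 43 lower genes, against 33.6 kb for all 12421 tested. Genes with 1 exon were 13.6% of the higher and 11.6% of the lower genes, against 2.29% of those tested. Among the 975 genes below 5 kb, 2.67% were called higher and 1.23% lower, while of the 1545 genes of 100 to 200 kb none was called higher and 0.194% were called lower. The median log2 fold change of each class moved little, from 0.05 below 5 kb to -0.10 above 200 kb. The comparisons with each of the other labels moved in different ways, from -0.08 below 5 kb through 0.05 at 50 to 100 kb to 0.01 above 200 kb against the label 30 min and from 0.18 to -0.24 against the label 120 min, and the label 120 min against 30 min ran from -0.25 to 0.23. Without single libraries, the median above 200 kb lay between -0.16 (without label 30 replicate 2) and -0.04 (without label 30 replicate 1), and that below 5 kb between 0.01 and 0.10. The part of RNA quality or depth in these shifts was not tested.

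**Figure D4:**
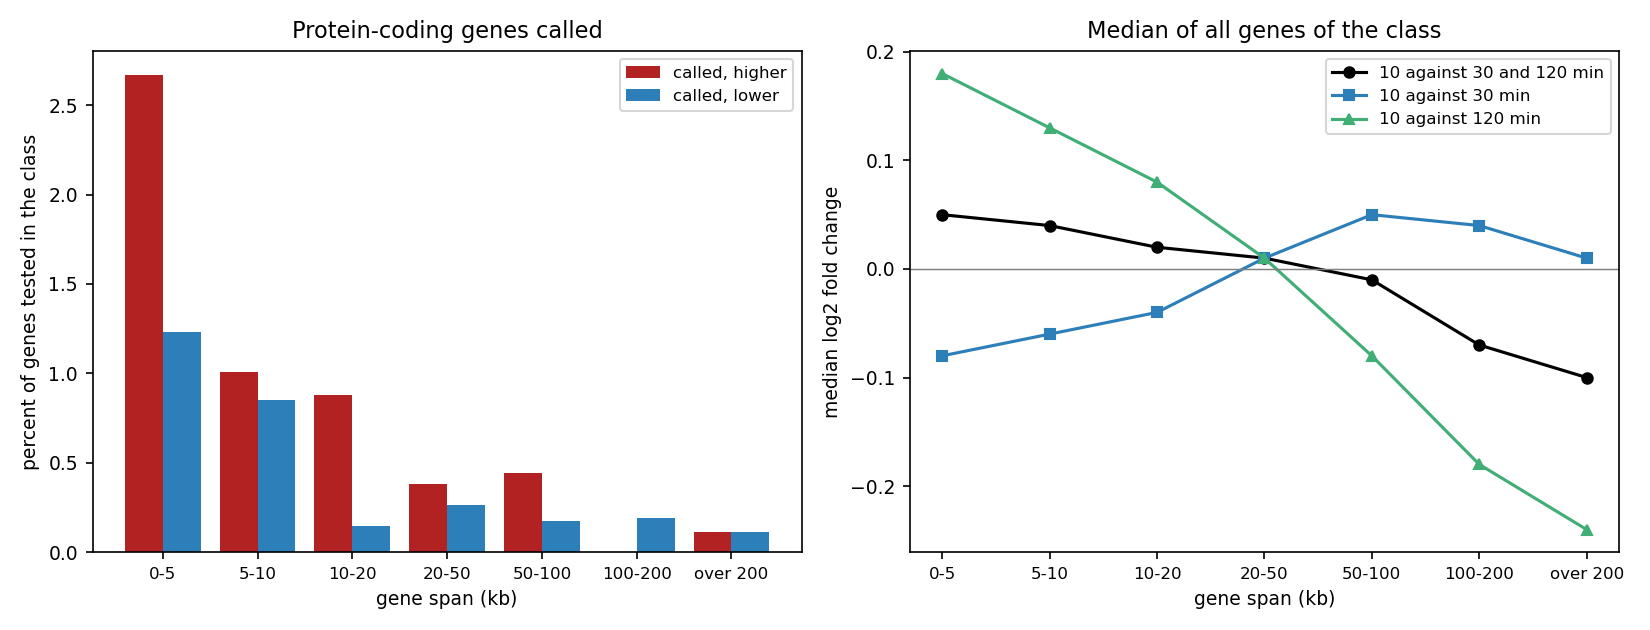
Protein-coding genes are grouped by span in kb (horizontal axes): the left panel gives the percent of each class called higher (red) or lower (blue) with the label 10 min, and the right panel the median log2 fold change of all genes of the class against both other labels (black), the label 30 min (blue) and the label 120 min (green). The share called is highest below 5 kb (2.67% higher and 1.23% lower), and the medians against 30 and 120 min run in different directions with span.

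Promoter windows in RefSeq (250 bases before to 50 bases after the start) were matched for 59 of the higher genes, 42 of the lower genes and 10789 of the genes tested, and searched on both strands. A TATAAA box was found in 15.3% of the higher and 16.7% of the lower windows, against 5.54% of all. The CArG box was found in 3 of the higher windows (5.08%) and in none of the lower ones, against 1.05% of all. The G-quadruplex motif (4 runs of 3 G with spacers of 1 to 7 bases) stood in 44.1% of the higher and 23.8% of the lower windows, against 33.9%, and GGCGCC, the motif of the BMP response element, with which it can overlap, in 33.9% and 16.7%, against 30.7%. The cAMP response element TGACGTCA was found in 3.39% of the higher windows and none of the lower ones, against 3.32%, the AP-1 site (TGACTCA or TGAGTCA) in 1.69% and 2.38%, against 3.2%, and the E-box CACGTG in 10.2% and 2.38%, against 10%. The median GC content was 69% in the higher and 62.3% in the lower windows, against 65.3%, so the G-rich motifs and the base composition differed together. These shares describe the windows and were not tested.

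The same contrast of labels in the 6 libraries treated with 5 µM RBI2, a ribosome biogenesis inhibitor known by its code name, was fitted for comparison. In 1 model of the 12 treated libraries, 81 of 15442 genes differed between the label 10 min and the other labels under RBI2 (25 higher and 56 lower, 0.525%, 0.162% and 0.363%). DESeq2 called 15 and the transcript length offset left 28, so the overlap below rests on the setting. Without a fold limit the balance turned, with 1139 higher and 1061 lower. Of the 166 genes called under CX-5461, 10 were called in the same direction under RBI2, which is 12.3% of the RBI2 calls, and 2 in the opposite one. Over the 106 higher and 60 lower genes of CX-5461, the median log2 fold change under RBI2 was 0.10 and -0.12. The difference between the compounds was tested directly, and passed in 187 genes (99 in the positive and 88 in the negative direction, 1.21%, 0.641% and 0.57%). Their balance turned with DESeq2 (46 positive and 63 negative) and without a fold limit (424 and 614). Of the 166 genes, 165 entered this test and 85 passed it in the direction of their change under CX-5461 (52 higher and 33 lower). The test reuses the CX-5461 libraries by which the 166 genes were picked. Such genes tend to pass it in that direction, so the 85 are no independent support for a difference between the compounds. The 187 became 110 without label 10 replicate 1 of CX-5461 and 112 without label 10 replicate 1 of RBI2, and the 81 became 17 without the latter, 40 and 51 without label 30 replicate 1 and 2 of RBI2, and 51 without label 120 replicate 1 of RBI2.

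For MYC the log2 fold change was 0.18 under RBI2 (adjusted p = 0.045), and the difference between the compounds was -2.21 (adjusted p = 1.2e-07). CCN1 stood at -0.12 under RBI2 (difference -2.55, adjusted p = 5.2e-09), PPP1R10 at 0.43 (difference -2.40, adjusted p = 1.8e-07), DUSP6 at -0.13 (difference -1.34, adjusted p = 5.2e-06) and EGR1 at 0.22 (difference 1.52, adjusted p = 0.00014). Of the ID genes, 2 had the same sign under both compounds and 2 did not. ID2 was higher with the label 10 min under RBI2 too (1.31, adjusted p = 5.1e-05), to a smaller extent (difference 1.79, adjusted p = 2e-05). ID4 was higher under RBI2 as well (1.33, adjusted p = 0.042), and its difference between the compounds did not pass the test (1.89, adjusted p = 0.063). ID1 and ID3 were at 0.68 and 0.68 (adjusted p = 0.0011 and 0.0012) and so of opposite sign to CX-5461, where both fell (differences -2.20 and -1.78, adjusted p = 2.6e-06 and 1.5e-05). KLF6 was lower under both compounds (RBI2 adjusted p = 3.3e-05) and differed between them by -0.89 (adjusted p = 0.0005). IGHV3-15 was lower under both, at -2.79 under RBI2 (adjusted p = 4.4e-06) (difference 1.03, adjusted p = 0.0072).

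**Figure D5:**
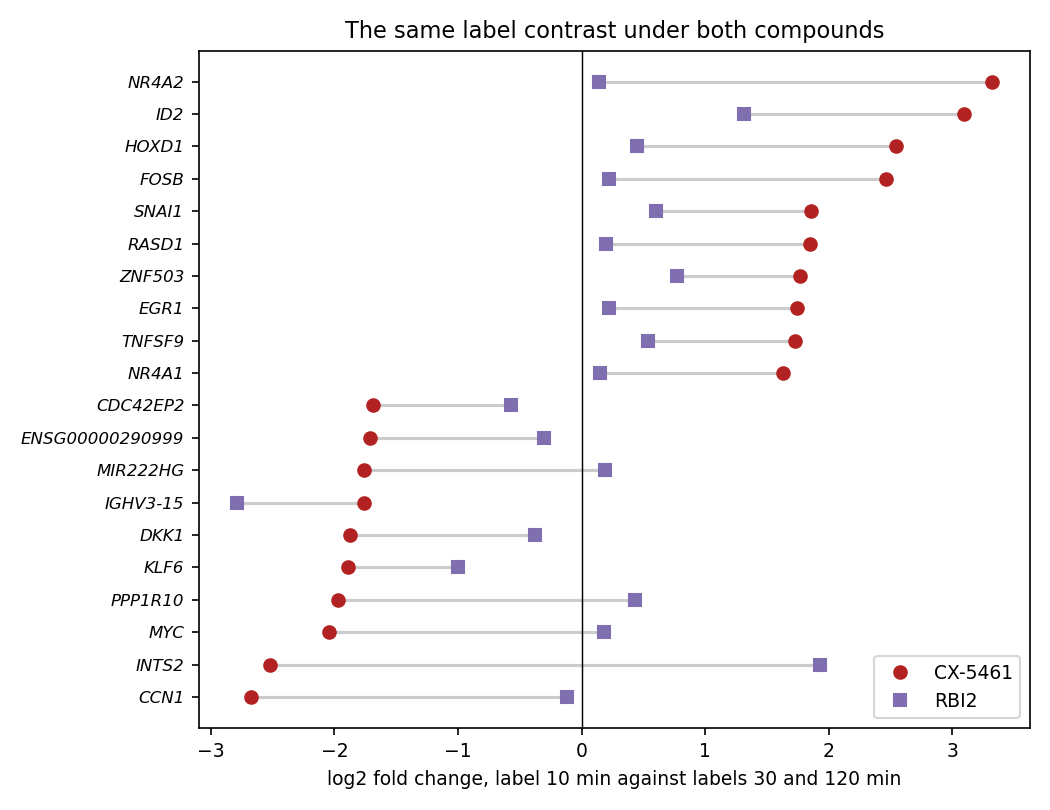
For the 20 genes of the plot of the largest rises and falls, the horizontal axis gives the log2 fold change with the label 10 min against the labels 30 and 120 min under CX-5461 (red circles) and under RBI2 (purple squares). The genes were chosen by their change under CX-5461, and that choice favours larger values under CX-5461 than under RBI2. ID2, KLF6 and IGHV3-15 lie on one side of 0 under both compounds at over 2-fold or close to it, whereas MYC (-2.04 and 0.18) and NR4A2 (3.32 and 0.14) lie near 0 under RBI2.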

How the data were processed

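Polyadenylated RNA of MDA-MB-231 cells was measured in 14 libraries, of which the 6 of CX-5461 entered the main comparison. Per the labels, the stranded libraries were prepared with a poly(A) capture kit. The authors removed reads of the rDNA repeat and deposited, for each library, the estimated counts per transcript from Salmon 1.3.0 (hg38; STAR 2.7.6a, SAMtools 1.11, bedtools 2.29.2 and DESeq2 1.28.1 are also named in the submitters' processing notes). Whether Salmon used the strand is not given in the sources used here, so genes that overlap on opposite strands (FOSB with ERCC1, DKK1 with PRKG1-AS1, HOXD1 with HAGLR, among others) may share reads. The authors' files also hold TPM values as deposited, which were not used here.

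The estimated counts were summed per gene by transcript identifier to GENCODE 44 (225662 of 228754 transcripts matched, and the unmatched ones held 1.03% to 1.08% of reads) and rounded. Genes passing edgeR's filterByExpr (minimum count 10) were fitted with edgeR 4.0.16 (R 4.3.3, limma 3.58.1) by the quasi-likelihood F test with TMM factors, 3 groups and Benjamini-Hochberg adjustment. A gene was called at an adjusted p under 0.05 and a log2 fold change of at least 1 in size. SE is the log2 fold change divided by the square root of F. CPM values are scaled by TMM. RBI2 and the difference between the compounds came from 1 model of 12 libraries. Depth ranged from 14892514 to 24849354 reads, replicates share only their number, and a floor of 3 counts covers counting error only. On simulated data (14551 genes), 92 of 100 genes changed by 1.5 and 95 of 100 changed by 2.5 (log2) were recovered, with 9 false calls. The changed genes were drawn at random from all genes tested, with the same spread for a gene in every group. These shares therefore do not give the recovery of genes of low level.

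Named genes were the 10 largest rises and 10 largest falls among called genes of at least 5 CPM whose groups did not overlap, up to 4 called members of each of 28 lists (where fewer than 2 were called, also the 2 of highest level), MYC, GAPDH and ACTB, and up to 3 genes each way for the difference between the compounds and for the label 120 min against 30 min. Other genes were named after their values were seen. The members and lists were chosen with earlier results of these data known. Alternatives were DESeq2 1.42.0, its size factors, no filter, a transcript length offset, the replicate block, other sets of libraries, other thresholds and leaving out each library. Promoter and microRNA sequences are from RefSeq (GRCh38.p14). Tables were handled in Python 3.11.15 with pandas 2.3.3 and plotted with matplotlib 3.10.9.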

Additional observations from a re-analysis of the deposited data

Results flagged for a closer look

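The difference of the label contrast between CX-5461 and RBI2 passed its test in 187 of 15442 genes (edgeR's quasi-likelihood test, an interaction term in the model of 12 libraries). Values are given here for the genes with the largest differences in each direction among those with at least 5 CPM in the higher group. NR4A2 differed by 3.18 on the log2 scale (adjusted p = 0.0037): under RBI2 it had 1.35 and 1.31 CPM with the label 10 min and 0.887 to 1.81 CPM with the other labels. SFXN3, a mitochondrial serine transporter, differed by 2.42 (adjusted p = 2.1e-05), with 42.1 and 40.4 CPM against 10.9 to 18.6 CPM under CX-5461. Under RBI2 SFXN3 had 20.8 and 20.2 CPM with the label 10 min, 24.6 and 18.2 CPM with the label 30 min and 62 and 66.7 CPM with the label 120 min. FOSB differed by 2.24 (adjusted p = 0.00089), with 1.88 to 2.4 CPM in all 6 RBI2 libraries.

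In the negative direction, ENSG00000258964 differed by -5.38 and IKBKGP1 by -5.02. Under RBI2 both had no read with the label 30 min, so the size of these fitted values depends on the prior count and is no bound. ENSG00000258964 had 6.76 and 7.37 CPM with the label 10 min and 4.93 and 8.27 CPM with the label 120 min. IKBKGP1 had 6.2 and 5.25 CPM with the label 10 min and 5.83 and 5.69 CPM with the label 120 min. In both, these 2 labels were alike in range under RBI2, so the large differences came from the label 30 min. ENSG00000258964 shares its strand and span with HIF1A and SNAPC1. INTS2 differed by -4.45 (adjusted p = 0.0047): under RBI2 it had 2.76 and 4.31 CPM with the label 10 min and 0.481 to 1.26 CPM with the other labels.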

How the results depend on the processing

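Counts of called genes depended on the threshold and on single libraries more than on the scaling. The label 10 min against both other labels gave 166 calls; it gave 437 without a filter on low counts, 371 with an unadjusted p, 578 without a fold limit and 107 with the replicate block, and between 111 and 195 with DESeq2, its size factors, the length offset, 2 groups or more libraries in the fit. Against the label 30 min alone (140), the same 4 settings gave 392, 403, 375 and 76. Against the label 120 min alone (143), they gave 494, 441, 463 and 53, and the fit of 12 libraries gave 223. The label 120 min against 30 min (7) gave 309 without a filter, 216 with an unadjusted p, 51 with 12 libraries, 2 with 14 libraries, 4 with DESeq2, 4 with the length offset and 0 with the replicate block (edgeR, where 2539 genes had an unadjusted p under 0.05). For RBI2 (81), DESeq2 gave 15, no filter 302, the length offset 28, an unadjusted p 262 and no fold limit 2200. For the difference between the compounds (187), the values were 109 with DESeq2, 406 without a filter, 466 with an unadjusted p and 1038 without a fold limit. Leaving out each library gave 62 to 170, 49 to 144, 29 to 173, 2 to 173, 17 to 98 and 110 to 250 calls for these 6 comparisons in turn. None of the 82 named called genes changed direction in a setting that gave it a value (81 of them in the fits of 12 and 14 libraries, where IRX5 was not tested). The balance of calls did turn: without a fold limit it was 250 higher and 328 lower for the main comparison (106 and 60), 158 and 217 against the label 30 min (79 and 61), 176 and 287 against the label 120 min (75 and 68), 1139 and 1061 for RBI2 (25 and 56) and 424 and 614 for the difference between the compounds (99 and 88). The cause of these changes was not tested. Replicate numbers did not pair the samples: deviations correlated at -0.109, -0.0114 and -0.118 between the groups. Of 82 named called genes, 69 kept their call with the replicate block, 75 with DESeq2, 68 with the length offset, 64 with 2 groups, 40 without label 10 replicate 1 and 43 without replicate 2.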
